A study of Homo sapiens with 32 samples.

Results

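The mRNAs of the nuclear-encoded subunits of the respiratory chain and of ATP synthase were compared between MDA-LM2 and MDA-MB-231 cells in a study of RNA decay. Members were protein-coding genes whose current symbol names a subunit of complex I (NDUFA, NDUFB, NDUFC, NDUFS and NDUFV genes), complex II (SDHA to SDHD), complex III (UQCR genes and CYC1), complex IV (COX4 to COX8 genes and NDUFA4) or complex V (ATP5 genes). Assembly factors were left out, and the rule goes by gene symbol alone. Of 89 such symbols, 79 had an mRNA in the rate tables of both lines, among 10827 genes with a rate in both. They comprised 34 genes of complex I, 4 of complex II, 10 of complex III, 13 of complex IV and 18 of complex V. Of the other 10 symbols, COX7A1, NDUFA4L2 and NDUFC2 had rates in MDA-MB-231 only and ATP5MGL in MDA-LM2 only. COX4I2, COX6A2, COX7B2, COX8C, NDUFA11 and NDUFB6 were not analysed here. No filter on low values was applied.

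MDA-LM2 is a derivative of MDA-MB-231 that was selected for metastasis to the lung, and MDA-MB-231 is an established line of human breast cancer cells. Cells of both lines were grown in the same medium and received 4-thiouridine (4sU), a uridine analogue that new RNA takes up, for 2 h, and the label was then chased with excess uridine. Labelled RNA was precipitated and sequenced at 0, 2, 4 and 7 h of the chase, in 16 libraries per line, and the authors deposited decay rates of RefSeq transcripts from 4 replicate series of each line. The question was which RNAs are more or less stable in the metastatic derivative.

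A rate is positive where the labelled RNA became less abundant with time on the authors' scale, so that a lower rate means slower decay. The sources used here give neither its log base nor how time points were scaled and zeros handled. Rates were therefore not converted to half-lives, and a rate near or below 0 cannot be read as little or no loss of RNA. Read depth behind the rates is unknown, and no counting interval can be given. Each library came from bulk cells, so fewer cells of a kind and less RNA per cell cannot be told apart in the abundances behind a rate. Whether a series is a culture of its own is not stated in the labels, and the p-values therefore measure only the spread between these series. All 4 markers expected of these lines (VIM, CD44, KRT8 and KRT18) had a row in both tables. Of the immune markers 1 of 4 had one (CD68), and of the endothelial and fibroblast markers 0 of 4 in MDA-LM2 and 1 of 4 in MDA-MB-231 (COL1A1). The presence of a row says nothing of a level.

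Complexes I and II take electrons from NADH and succinate, complexes III and IV pass them on to oxygen, and the proton gradient that complexes I, III and IV build drives ATP synthesis by complex V. Most subunits are encoded in the nucleus, translated on cytosolic ribosomes and imported into mitochondria, where they join a few subunits encoded by mitochondrial DNA. The mRNAs of such housekeeping metabolic genes are known for slow decay in many cell types.

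Respiratory chain subunit mRNAs had a lower median rate than all genes in both lines, and their median rate was lower in MDA-LM2 than in MDA-MB-231. This median over the 79 genes was 0.0115, 0.0470, 0.00741 and 0.0287 in the MDA-LM2 series and 0.0920, 0.0715, 0.126 and 0.0803 in the MDA-MB-231 series, in the order 1_1, 1_2, 2_1 and 2_2 of the series labels, which holds for all lists of 4 values below. All 4 medians of MDA-LM2 thus lay under the lowest median of MDA-MB-231. The mean of these medians was 0.0237 ± 0.0181 in MDA-LM2 against 0.0924 ± 0.0237 in MDA-MB-231 (SD, n = 4 series each). Over all 10827 genes it was 0.164 ± 0.0106 in MDA-LM2 against 0.188 ± 0.0154 in MDA-MB-231, and there the series of the lines overlapped. Of the 79 genes, 73 had a mean rate below the median gene in MDA-LM2 against 60 in MDA-MB-231. The mean rate was lower in MDA-LM2 for 63 genes (79.7%), against 66.8% of all genes. The median of the gene differences, MDA-LM2 minus MDA-MB-231, was -0.0881 for the subunits and -0.0532 for all genes. No test was made over the members as a set.

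**Figure D1:**
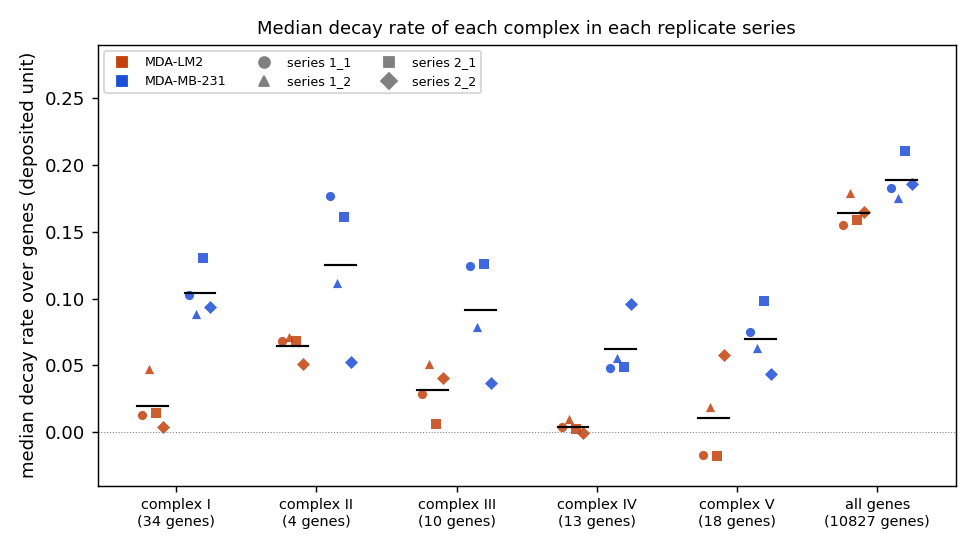
Median decay rate (vertical axis, deposited unit) over the genes of each complex and over all genes, for each of the 4 replicate series of MDA-LM2 (orange, left) and MDA-MB-231 (blue, right). Marker shapes stand for the series and black lines for the mean of the 4 series. The MDA-LM2 medians of complex I and complex IV lie below all MDA-MB-231 medians of the same complex, and the series overlap for complexes II, III and V.

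Ordered by median rate, the complexes differed between the lines only in the places of complexes I and III. Complex II had the fastest median, at 0.0647 ± 0.00918 in MDA-LM2 against 0.125 ± 0.0560 in MDA-MB-231, and complex IV the slowest, at 0.00390 ± 0.00449 in MDA-LM2 against 0.0622 ± 0.0230 in MDA-MB-231 (SD over 4 series). Complex I stood at 0.0198 ± 0.0192 in MDA-LM2 against 0.104 ± 0.0187 in MDA-MB-231, and complex III at 0.0316 ± 0.0191 in MDA-LM2 against 0.0915 ± 0.0425 in MDA-MB-231. Complex V had 0.0106 ± 0.0360 in MDA-LM2 against 0.0700 ± 0.0226 in MDA-MB-231. Neighbours in this order overlapped in their series in each line, except that in MDA-LM2 every series median of complex II lay above those of complex III.

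The median difference between the lines was -0.0987 for complex I, -0.0858 for complex V, -0.0813 for complex II, -0.0618 for complex III and -0.0493 for complex IV. With all series included, only the complex IV median was nearer to 0 than that of all genes. Differences between complexes were not tested, and the order depended on single genes and series. With each transcript taken singly, complex III stood at -0.101 and complex I at -0.0944, and complex III was also at -0.101 without UQCRHL. Without MDA-MB-231 series 2_2 the complex IV median was -0.0277. After centring of every series on the median of all genes, the complex IV difference was -0.0251.

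Since single series reached rates as far from 0 as 9.997 and -8.45, counts were also made for the 63 subunit genes with all 8 rates within 1 of 0, called in range here. Of these, 50 had the lower mean in MDA-LM2 (79.4%), against 57.9% of all genes in range, and their median difference was -0.0781, against -0.0169 for all genes in range. The complex medians in range were -0.0890 for complex I, -0.0813 for complex II, -0.0690 for complex V, -0.0493 for complex IV, where every member was in range, and -0.0221 for complex III.

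**Figure D2:**
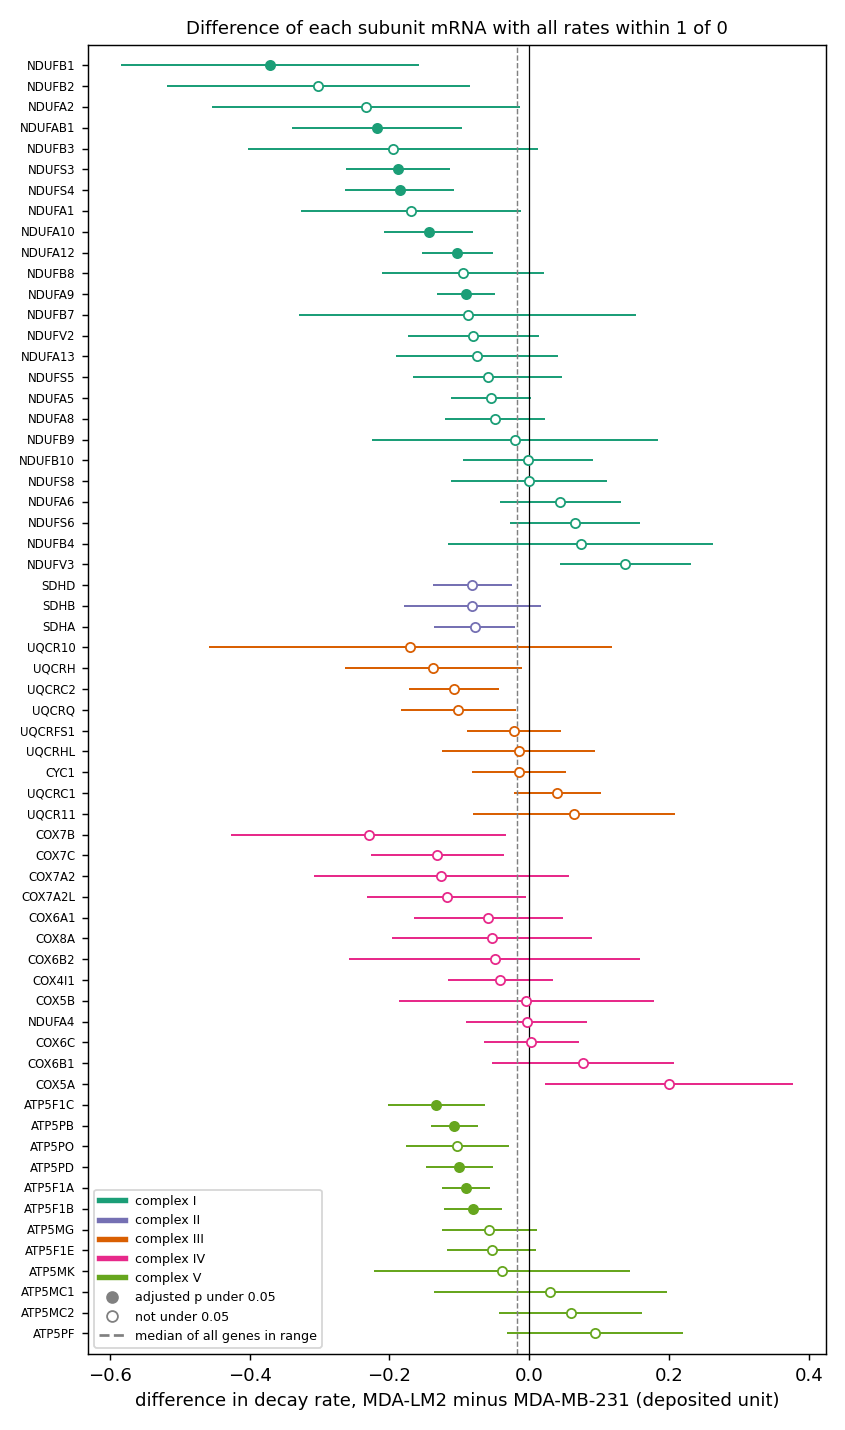
Difference in decay rate, MDA-LM2 minus MDA-MB-231 (horizontal axis, deposited unit), with its 95% interval from limma, for 62 of the 63 subunit genes in range, grouped by complex. Filled circles mark the 12 genes with a limma adjusted p under 0.05, all of complexes I and V and all left of 0, and the dashed line marks the median of all genes in range (-0.0169).

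By limma on all genes (moderated test, Benjamini-Hochberg adjustment over 10827 genes), 12 of the 79 subunit mRNAs were slower in MDA-LM2 at an adjusted p under 0.05 (15.2%), against 6.67% of all genes. None was faster, against 2.01% of all genes. At an unadjusted p under 0.05, 25 subunits were lower in MDA-LM2, against 19% of all genes, and 2 higher, against 7.14% of all genes. Complex V held 5 of the 12 calls among its 18 genes and complex I held 7 among its 34. The 27 genes of complexes II, III and IV held 0, but at the share of all genes few calls would fall among so few genes. In other fits complex III did hold calls, namely a transcript of UQCRB fitted singly and UQCRC2 with only genes in range. The number of calls was not compared between complexes by a test. After centring of every series on its median over all genes, the split was 8 slower and 1 faster (5.16% and 3.99% of all genes). In 23 genes all 4 MDA-LM2 rates were below all 4 MDA-MB-231 rates (29.1%, against 17.4% of all genes). The reverse held for COX5A alone, against 5.65% of all genes.

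In these calls each series counts as an independent replicate. Within a line, however, series whose labels end in the same number (1_1 with 2_1, 1_2 with 2_2) deviated together, with a correlation that limma estimated at 0.459. With this correlation in the model, 3 of the 79 passed (ATP5F1A, ATP5PB and NDUFS3), against 3.14% of all genes, and 0 were faster, against 0.323%. With the correlation and only genes in range in the fit, 0 passed, against 0.0138% of all genes in range. At an unadjusted p under 0.05 in that fit, 23 subunits were lower in MDA-LM2, against 12.1% of all genes in range, and 1 higher, against 6.08%. Without the trend in the variance, 8 subunits were slower, against 5.38% of all genes, and 0 faster, against 1.56%, and ATP5F1B, ATP5F1C, NDUFAB1 and NDUFB1 no longer passed. Leaving out 1 series lowered the count of 12 to 3 without MDA-LM2 series 1_1 and without its series 2_2, to 5 without its series 1_2 and without its series 2_1, and to 7 without MDA-MB-231 series 1_1. Without MDA-MB-231 series 1_2, 2_1 and 2_2 the counts were 13, 9 and 10 in that order. The number of slower genes among all 10827 genes moved as well, from 402 to 993 over these fits against 722 in the main fit. Shares of all genes are not given fit by fit. The counts without 1 series therefore do not show whether the subunits stayed above that share. Among genes in range without the correlation, 13 subunits were slower (7.43% of all genes in range) and 0 faster (3.66%). With each transcript fitted singly, 12 subunit genes had a slower transcript (6.04% of all transcripts) and 1 a faster one (1.9%). These were not the same 12, since NDUFB1 dropped out (limma adjusted p = 0.0532) and UQCRB of complex III came in. With correlated series 3 subunit genes had a slower transcript (2.97%) and 0 a faster one (0.285%). Subunits were counted by gene here, whereas the shares are of transcripts. By the authors' deposited score, 5 had a slower transcript (4.49%) and 1 a faster one (1.07%).

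**Figure D3:**
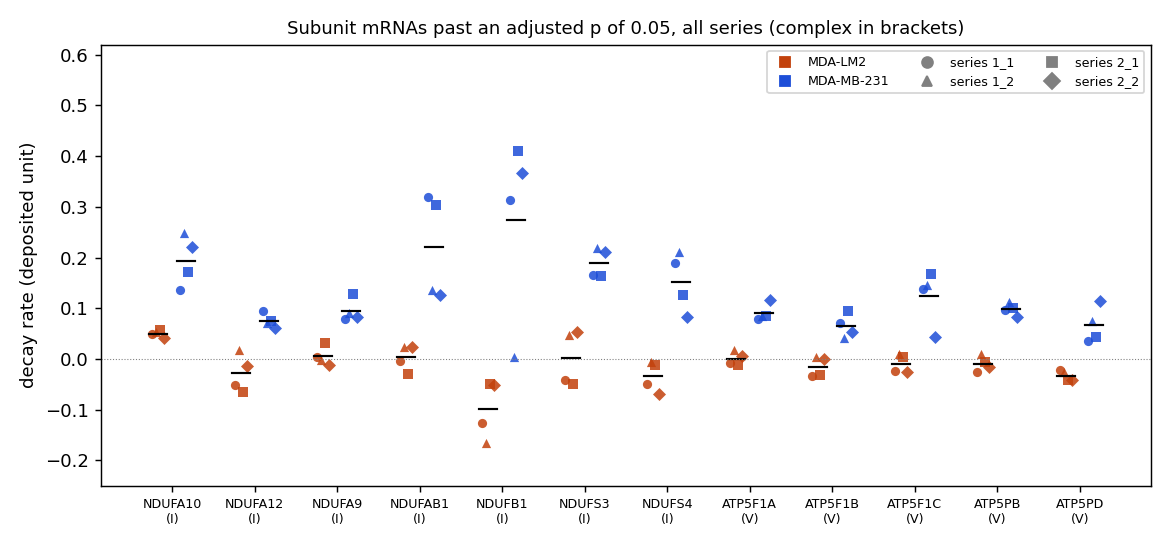
Decay rate (vertical axis, deposited unit) in each series of MDA-LM2 (orange, left) and MDA-MB-231 (blue, right) for the 12 subunit mRNAs past the limma adjusted p of 0.05, with marker shapes for series and black lines for means. In every gene the 4 MDA-LM2 rates lie below the 4 MDA-MB-231 rates.

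Within complex V, the calls fell on the F1 head with its central stalk (3 of 5 genes) and on the peripheral stalk (2 of 4 genes). The share of all genes was 6.67%, and the parts of the complex were not compared by a test. The F1 head is the part that makes ATP, and the peripheral stalk holds it still while the c ring and the central stalk turn. The subunits of the F1 head had median differences of -0.0907 and those of the peripheral stalk -0.101.

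ATP5F1A, the alpha subunit, had rates of -0.00832, 0.0177, -0.0115 and 0.00540 in the MDA-LM2 series, against 0.0787, 0.0857, 0.0852 and 0.116 in the MDA-MB-231 series. ATP5F1B, the beta subunit that carries the catalytic sites, had -0.0334, 0.00326, -0.0312 and -0.000603 in the MDA-LM2 series, against 0.0714, 0.0407, 0.0954 and 0.0539 in the MDA-MB-231 series. ATP5F1C, the gamma subunit of the rotating stalk, had -0.0242, 0.0106, 0.00311 and -0.0263 in the MDA-LM2 series, against 0.138, 0.147, 0.168 and 0.0437 in the MDA-MB-231 series. All 3 stayed close to 0 in every MDA-LM2 series and were above 0.04 in every MDA-MB-231 series. The ATP5F1C rates are those of NM_001001973 alone. Another transcript of that gene, NM_005174, had rates in MDA-MB-231 only, at -0.102, -0.240, -0.0614 and 0.0458, and entered no comparison. The differences were -0.0907 (SE 0.0141, limma adjusted p = 0.00999) for ATP5F1A, -0.0808 (SE 0.0171, adjusted p = 0.0330) for ATP5F1B and -0.133 (SE 0.0287, adjusted p = 0.0347) for ATP5F1C. With correlated series the adjusted p was 0.0482, 0.0999 and 0.183 in the same order of genes.

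The other F1 genes did not pass. ATP5F1E, the epsilon subunit, was among the slowest members of complex V in both lines, at -0.0751 ± 0.0448 in MDA-LM2 against -0.0211 ± 0.0306 in MDA-MB-231 (SD, n = 4 series each; difference -0.0540, adjusted p = 0.248). ATP5F1D, the delta subunit, had 0.160, -0.0631, 0.0743 and 0.314 in the MDA-LM2 series, against -0.235, 9.69, -0.403 and -0.420 in the MDA-MB-231 series. Series 1_2 of MDA-MB-231 alone set the sign of its difference (-2.04, adjusted p = 0.559). Without that series the difference was 0.474 toward faster decay in MDA-LM2 (adjusted p = 0.0304).

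In the peripheral stalk, ATP5PB, subunit b, had rates of -0.0249, 0.0108, -0.00568 and -0.0158 in the MDA-LM2 series, against 0.0968, 0.112, 0.101 and 0.0833 in the MDA-MB-231 series. Its difference of -0.107 (SE 0.0134) had the smallest limma adjusted p of all 79 genes, 0.00362, and 0.0290 with correlated series. ATP5PD, subunit d, had -0.0226, -0.0249, -0.0422 and -0.0405 in the MDA-LM2 series, against 0.0363, 0.0756, 0.0433 and 0.115 in the MDA-MB-231 series. Its series did not overlap either, and the difference was -0.100 (SE 0.0198, adjusted p = 0.0253, 0.0918 with correlated series). Another ATP5PD transcript, NM_001003785, had rates in MDA-MB-231 only (0.0320, 1.18, -0.0677 and 9.62) and entered no comparison. ATP5PO, which joins the stalk to the head, and ATP5PF, coupling factor 6, were looked at after their values were seen. ATP5PO had -0.0514 ± 0.0526 in MDA-LM2 against 0.0513 ± 0.0359 in MDA-MB-231, with no overlap between the lines (adjusted p = 0.0910). ATP5PF had 0.0877 ± 0.04996 in MDA-LM2 against -0.00623 ± 0.101 in MDA-MB-231, the higher mean being in MDA-LM2 (adjusted p = 0.282).

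The membrane part of complex V, with 3 genes of the c ring and 5 other membrane subunits, held no call. At the share of all genes (6.67%) few calls would fall among so few genes. Over the whole complex, the 7 genes in range that were not called had differences from -0.103 to 0.0940, 4 of them lower in MDA-LM2. ATP5MC1, ATP5MC2 and ATP5MC3 encode the same mature subunit c, of which the rotating ring is built. ATP5MC1 had 0.0282, 0.0205, -0.0233 and 0.0749 in the MDA-LM2 series, against 0.111, -0.140, 0.130 and -0.121 in the MDA-MB-231 series. ATP5MC2 had -0.00618, 0.0910, 0.0473 and 0.0769 in the MDA-LM2 series, against 0.0239, -0.125, 0.0302 and 0.0443 in the MDA-MB-231 series. The lines overlapped for both genes, with differences of 0.0302 (adjusted p = 0.784) for ATP5MC1 and 0.0590 (adjusted p = 0.393) for ATP5MC2. ATP5MC3 is a median of 2 transcripts. NM_001689 had 0.0560 ± 0.0425 in MDA-LM2 against -0.0306 ± 0.0529 in MDA-MB-231. NM_001190329 had 0.105 ± 0.0950 in MDA-LM2 against 4.06 ± 3.93 in MDA-MB-231. The transcripts thus differed in opposite directions between the lines, and neither passed. Among the other membrane subunits, ATP5ME, ATP5MF and ATP5MJ each had a rate beyond 1 in some series. ATP5MG had -0.0119 ± 0.0567 in MDA-LM2 against 0.0452 ± 0.0102 in MDA-MB-231, and ATP5MK had 0.0492 ± 0.0824 in MDA-LM2 against 0.0878 ± 0.143 in MDA-MB-231. ATP5IF1, a small protein that inhibits ATP hydrolysis by complex V, had 0.0318 ± 0.0948 in MDA-LM2 against 1.29 ± 2.32 in MDA-MB-231, where the MDA-MB-231 mean rests on 1 series at 4.77.

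In complex I, 1 of 7 core subunits, 1 of 10 NDUFB accessory subunits and 5 of the 17 other accessory subunits were slower in MDA-LM2. The share of all genes was 6.67%, and with groups this small the counts do not set the groups apart. Core subunits carry the flavin, the iron-sulfur clusters and the ubiquinone site, while accessory subunits surround them and are needed for assembly and stability.

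NDUFS3, a core subunit of the matrix arm, had rates of -0.0407, 0.0466, -0.0501 and 0.0539 in the MDA-LM2 series, against 0.166, 0.219, 0.165 and 0.211 in the MDA-MB-231 series. The lines were well apart, although the MDA-LM2 series split into a pair near -0.05 and a pair near 0.05 by the last number of their label. Its difference was -0.188 (SE 0.0308, limma adjusted p = 0.0126, 0.0250 with correlated series). NDUFV1, which binds NADH and the flavin, had -0.0251, 0.190, -0.0879 and 0.0822 in the MDA-LM2 series, against 0.0920, 1.92, 0.0426 and 1.90 in the MDA-MB-231 series, with rates near 1.9 in the MDA-MB-231 series 1_2 and 2_2 only (adjusted p = 0.271). NDUFS7, which carries the iron-sulfur cluster nearest to ubiquinone, had 0.119, 0.152, 0.0961 and 0.0410 in the MDA-LM2 series, against 0.112, -8.45, 0.105 and -0.262 in the MDA-MB-231 series, with 1 series far below 0 (adjusted p = 0.471).

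Among accessory subunits, NDUFS4, which is frequently mutated in Leigh syndrome, had rates of -0.0494, -0.00532, -0.0109 and -0.0691 in the MDA-LM2 series, against 0.189, 0.211, 0.126 and 0.0820 in the MDA-MB-231 series. NDUFA10, of the membrane arm on its matrix side, had 0.0486, 0.0534, 0.0569 and 0.0416 in the MDA-LM2 series, against 0.135, 0.249, 0.172 and 0.221 in the MDA-MB-231 series. NDUFA10 differed little between its MDA-LM2 series (SD 0.00664), and both genes had non-overlapping series. The differences were -0.186 (SE 0.0323, limma adjusted p = 0.0159) for NDUFS4 and -0.144 (SE 0.0262, adjusted p = 0.0187) for NDUFA10. With correlated series they missed the threshold, at 0.137 for NDUFS4 and 0.0561 for NDUFA10.

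NDUFA9, an accessory subunit of the matrix arm, had 0.00354, -0.00126, 0.0306 and -0.0126 in the MDA-LM2 series, against 0.0779, 0.0909, 0.129 and 0.0822 in the MDA-MB-231 series. NDUFA12, also of the matrix arm, had -0.0513, 0.0184, -0.0645 and -0.0131 in the MDA-LM2 series, against 0.0941, 0.0715, 0.0741 and 0.0617 in the MDA-MB-231 series. These were the smallest called differences of complex I, at -0.0899 (SE 0.0170, limma adjusted p = 0.0213) for NDUFA9 and -0.103 (SE 0.0208, adjusted p = 0.0278) for NDUFA12. With correlated series the adjusted p was 0.119 for NDUFA9 and 0.0857 for NDUFA12.

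NDUFAB1, the mitochondrial acyl carrier protein, had rates of -0.00480, 0.0231, -0.0290 and 0.0228 in the MDA-LM2 series, against 0.319, 0.136, 0.304 and 0.127 in the MDA-MB-231 series. The MDA-MB-231 series fell into a pair near 0.3 (1_1 and 2_1) and a pair near 0.13 (1_2 and 2_2), all above the MDA-LM2 series. NDUFB1, a small subunit of the membrane arm, had -0.126, -0.165, -0.0487 and -0.0510 in the MDA-LM2 series, against 0.313, 0.00460, 0.411 and 0.367 in the MDA-MB-231 series. Series 1_2 of MDA-MB-231 stood close to 0, below the other 3 and still above all MDA-LM2 series. The differences were -0.218 (SE 0.0507, limma adjusted p = 0.0442, 0.0876 with correlated series) for NDUFAB1 and -0.372 (SE 0.0896, adjusted p = 0.0495, 0.242 with correlated series) for NDUFB1, the largest of the 12. In the fit of genes in range with correlated series, the adjusted p of the 12 genes lay between 0.0864 for NDUFS3 and 0.190 for NDUFB1.

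NDUFS6, an accessory subunit with a zinc site, was among the slowest of complex I by its mean over both lines and had its higher mean in MDA-LM2, at 0.0237 ± 0.0308 in MDA-LM2 against -0.0415 ± 0.0759 in MDA-MB-231 (adjusted p = 0.301). Without MDA-MB-231 series 2_1 NDUFS6 was faster in MDA-LM2, at an adjusted p of 0.0342. NDUFC1, a small membrane-arm subunit, had the fastest mean rate of all 79 genes over both lines (in MDA-LM2 alone, ATP5MJ was faster), with 0.226, 2.66, 2.05 and -0.629 in the MDA-LM2 series, against 9.49, 9.36, 2.49 and 9.46 in the MDA-MB-231 series. The 19 genes of complex I in range that were not called had differences from -0.302 to 0.137, and 14 of them had lower means in MDA-LM2. NDUFC1 was also the only member with rates beyond 1 in both lines besides ATP5MJ, and its difference of -6.62 (SE 1.88) did not pass (limma adjusted p = 0.0789). Without MDA-MB-231 series 2_1 it was -8.36 and passed, at an adjusted p of 0.00557.

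NDUFV3, an accessory subunit of the module that binds NADH, is the one member for which separate transcripts gave opposite results, 1 of them called. Gene and transcripts were singled out after their values were seen. The longer mRNA, NM_021075, contains an exon of 1095 bases (exon 3) that the shorter mRNA, NM_001001503, skips, so that their coding lengths are 1422 and 327 bases. The junctions that tell the mRNAs apart are given below from GENCODE 29 on the mRNA strand (the plus strand, 5′ to 3′), and in the build GRCh38 the extra exon lies at chr21:42903182-42904276. They show 15 bases on each side, with the bases of the extra exon in capitals.
NM_021075, start of the extra exon: aaagtccaccaaaaaATGTAGTGGAACCAA
NM_021075, end of the extra exon: GAGGCGGCACACAGGagccagccccagtgc
NM_001001503, junction without it: aaagtccaccaaaaaagccagccccagtgc

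The mRNA with the extra exon had rates of 0.373, 0.363, 0.223 and 0.336 in the MDA-LM2 series, against -0.0684, -0.154, 0.0413 and -0.0307 in the MDA-MB-231 series. All 4 MDA-LM2 rates were above 0.2 and all 4 MDA-MB-231 rates below 0.05. Its difference was 0.377 (SE 0.0509), toward faster decay in MDA-LM2, with a limma adjusted p of 0.00553 among 12966 transcripts (1.9% of them called faster) and 0.0503 with correlated series. The score of this mRNA in the authors' deposited table, turned into a p, gave an adjusted p of 0.0146. The mRNA without the exon had 0.105, 0.273, 0.127 and 0.201 in the MDA-LM2 series, against 0.430, 0.333, 0.201 and 0.149 in the MDA-MB-231 series, and the lines overlapped (difference -0.102, adjusted p = 0.376). The gene median of both had a difference of 0.137 (adjusted p = 0.0785, and 0.0392 after centring). The difference between the transcripts was not tested, and since the mRNAs share their other coding exons, how the authors' estimation divided shared reads between them is uncertain.

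**Figure D4:**
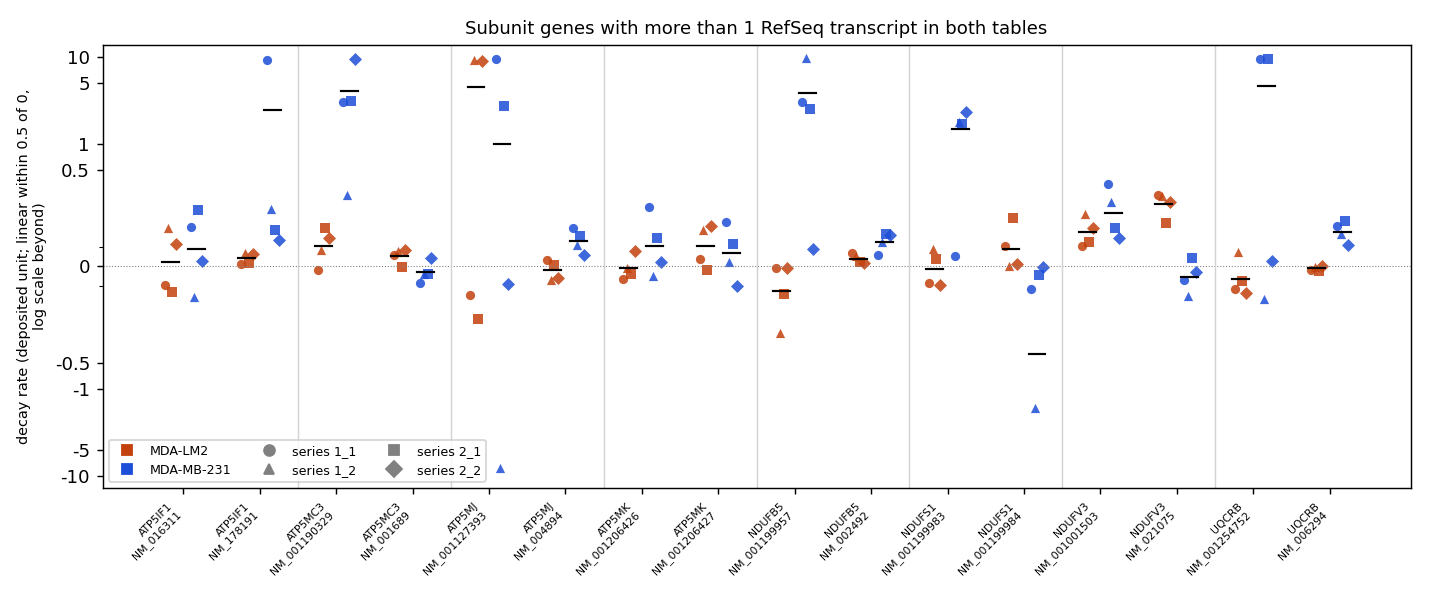
Decay rate (vertical axis, deposited unit, linear within 0.5 of 0 and logarithmic beyond) of each RefSeq transcript of the 8 subunit genes with 2 transcripts in both tables, in each series of MDA-LM2 (orange, left) and MDA-MB-231 (blue, right), with black lines for means. NM_021075 of NDUFV3 and NM_001199984 of NDUFS1 lie higher in all 4 MDA-LM2 series than in any MDA-MB-231 series. NM_006294 of UQCRB, NM_004894 of ATP5MJ, NM_001190329 of ATP5MC3, NM_178191 of ATP5IF1 and NM_001199957 of NDUFB5 lie lower in all 4. Of these only NM_021075 and NM_006294 passed the limma threshold.

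UQCRB, a ubiquinone-binding subunit of complex III, also had a transcript that passed while its gene median did not. NM_006294 had -0.0183, -0.00249, -0.0217 and 0.000440 in the MDA-LM2 series, against 0.210, 0.167, 0.238 and 0.109 in the MDA-MB-231 series. The MDA-LM2 series were all within 0.022 of 0 and the MDA-MB-231 series all above 0.1, a difference of -0.191 (SE 0.0288, limma adjusted p = 0.00915 among transcripts, 0.0305 with correlated series). NM_001254752 jumped to 9.45 and 9.47 in the MDA-MB-231 series 1_1 and 2_1, and the gene median did not pass (difference -2.47, SE 1.29, adjusted p = 0.271). Transcripts of ATP5MJ parted likewise, with NM_004894 at -0.0202 ± 0.0508 in MDA-LM2 against 0.132 ± 0.0608 in MDA-MB-231 (adjusted p = 0.0592) and NM_001127393 at 4.49 ± 5.44 in MDA-LM2 against 1.01 ± 7.27 in MDA-MB-231. Of the other genes with 2 transcripts, NDUFS1, NDUFB5, ATP5IF1 and ATP5MK had no transcript past the threshold.

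Complex II held no call, yet all 4 of its genes had lower mean rates in MDA-LM2, against 66.8% of all genes. SDHA, the flavoprotein that oxidises succinate, had 0.0650, 0.0685, 0.0598 and 0.0505 in the MDA-LM2 series, against 0.177, 0.108, 0.178 and 0.0933 in the MDA-MB-231 series. SDHD, a membrane anchor, had 0.0713, 0.0745, 0.0795 and 0.0701 in the MDA-LM2 series, against 0.149, 0.115, 0.217 and 0.140 in the MDA-MB-231 series. The lines did not overlap for either gene, and their differences of -0.0781 (limma adjusted p = 0.0943) and -0.0814 (adjusted p = 0.0808) missed the threshold. SDHD passed without MDA-MB-231 series 1_2, at an adjusted p of 0.0448. SDHB, the iron-sulfur subunit, had 0.00691 ± 0.0127 in MDA-LM2 against 0.0882 ± 0.0844 in MDA-MB-231 (adjusted p = 0.257). SDHC, the other anchor, had 0.0756, 0.0960, 0.0763 and 0.0518 in the MDA-LM2 series, against 9.74, 0.198, 0.142 and -0.0393 in the MDA-MB-231 series, with 1 series of MDA-MB-231 at 9.74 (adjusted p = 0.483).

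In complex III 0 of 10 gene medians passed, and 7 of the 9 genes in range had lower means in MDA-LM2, with differences from -0.170 to 0.0639. Among all genes in range 57.9% had the lower mean there. The catalytic and core subunits had a median difference of -0.0185 and the small subunits -0.119. UQCRC2, a core subunit, came closest among gene medians, with 0.0488, 0.0470, 0.0653 and 0.0164 in the MDA-LM2 series, against 0.140, 0.224, 0.122 and 0.125 in the MDA-MB-231 series. Its lines did not overlap (difference -0.108, SE 0.0267, limma adjusted p = 0.0530), with an adjusted p of 0.0386 when only genes in range were fitted and 0.237 with correlated series. It was chosen after its values were seen. UQCRC1, the other core subunit, had its higher mean in MDA-LM2, at 0.00547 ± 0.0312 in MDA-LM2 against -0.0343 ± 0.0419 in MDA-MB-231 (adjusted p = 0.338). UQCRFS1, the Rieske iron-sulfur protein, had 0.0996 ± 0.0401 in MDA-LM2 against 0.122 ± 0.0378 in MDA-MB-231 (adjusted p = 0.601). UQCRH, the hinge protein, had -0.0473 ± 0.0323 in MDA-LM2 against 0.0900 ± 0.108 in MDA-MB-231 (adjusted p = 0.154). UQCRHL, a near-identical copy of UQCRH, had -0.000920 ± 0.0431 in MDA-LM2 against 0.0145 ± 0.0870 in MDA-MB-231, and the split of reads between these genes is uncertain. UQCR10, a small subunit, had 0.0189 ± 0.0483 in MDA-LM2 against 0.189 ± 0.257 in MDA-MB-231 (adjusted p = 0.385).

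Complex IV had the lowest mean of series medians in both lines, but not the lowest median in every series. Complex V was lower in MDA-LM2 series 1_1 and 2_1, and every other complex was lower in MDA-MB-231 series 2_2. In complex IV 0 of 13 genes passed in either direction, and 10 means were lower in MDA-LM2 (76.9%, against 66.8% of all genes). COX7B, a small subunit, had the largest difference, with 0.00429, -0.0736, 0.0978 and -0.0636 in the MDA-LM2 series, against 0.226, 0.0669, 0.439 and 0.152 in the MDA-MB-231 series (difference -0.230, SE 0.0828, limma adjusted p = 0.132), and the lines overlapped. COX5A, a nuclear-encoded subunit on the matrix side, ran the other way, with 0.242, 0.230, 0.132 and 0.131 in the MDA-LM2 series, against 0.0220, -0.233, 0.0489 and 0.0962 in the MDA-MB-231 series. All 4 of its MDA-LM2 rates lay above all 4 MDA-MB-231 rates, but the spread within MDA-MB-231 (SD 0.147) was near the size of the difference of 0.200 (SE 0.0744, adjusted p = 0.142).

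Several complex IV subunits exist as forms from separate genes, and mostly the widely expressed form was measured. COX6B2, known as a testis form, had rates of 0.294 ± 0.0602 in MDA-LM2 against 0.343 ± 0.175 in MDA-MB-231 and was the fastest of the complex (adjusted p = 0.712). COX6B1, the widely expressed form, had -0.0227 ± 0.0381 in MDA-LM2 against -0.0994 ± 0.111 in MDA-MB-231 (adjusted p = 0.385). The rates of COX6B2 were above those of COX6B1 in every series of both lines. COX4I1, the widely expressed form of the largest nuclear-encoded subunit, had -0.0508 ± 0.0346 in MDA-LM2 against -0.00907 ± 0.0550 in MDA-MB-231. COX6A1 had -0.0443 ± 0.0424 in MDA-LM2 against 0.0146 ± 0.0845 in MDA-MB-231. COX7A2 had -0.00975 ± 0.0999 in MDA-LM2 against 0.116 ± 0.130 in MDA-MB-231, and the lines of all 3 genes overlapped. COX8A had -0.000195 ± 0.112 in MDA-LM2 against 0.0531 ± 0.0616 in MDA-MB-231. COX7A2L, known for joining complexes III and IV into supercomplexes, had 0.0292 ± 0.0424 in MDA-LM2 against 0.147 ± 0.0910 in MDA-MB-231 (adjusted p = 0.172). NDUFA4, once counted as a complex I subunit, had -0.0451 ± 0.0383 in MDA-LM2 against -0.0411 ± 0.0655 in MDA-MB-231, and the lines overlapped (difference -0.00391, adjusted p = 0.954).

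Rates beyond 1 either side of 0 were rarer among subunits than among all genes. They occurred in 16 of the 79 genes (20.3%, against 33% of all genes). They made up 4 of 316 subunit values in MDA-LM2 (1.27%, against 3.91% over all genes) and 29 of 316 in MDA-MB-231 (9.18%, against 17.3%). Complex V had 6 such genes, complex I 8, complexes II and III 1 each, and complex IV 0. NDUFA7, an accessory subunit of the matrix arm, had 0.116, 0.0690, 0.0173 and -0.0303 in the MDA-LM2 series, against 9.65, 0.128, 0.0563 and -0.0295 in the MDA-MB-231 series. ATP5MF, a membrane subunit of complex V, had 0.0849, -0.115, 0.205 and -0.120 in the MDA-LM2 series, against -0.0361, 9.58, 0.129 and 9.997 in the MDA-MB-231 series. The first shows a jump in 1 series and the second in the pair of series whose labels end in the same number, and neither gene passed (adjusted p = 0.484 for NDUFA7 and 0.277 for ATP5MF). Means over such series are set by the jump. All 16 genes missed the limma threshold. NDUFB11, of the membrane arm, had -0.245 ± 0.240 in MDA-LM2 against 0.971 ± 1.52 in MDA-MB-231. NDUFB5, also of the membrane arm, had -0.0431 ± 0.0783 in MDA-LM2 against 1.99 ± 2.06 in MDA-MB-231. In both genes the lines did not overlap. NDUFA3, another membrane-arm subunit, had 0.226 ± 0.181 in MDA-LM2 against 2.74 ± 4.73 in MDA-MB-231. NDUFS1, the largest core subunit, had 0.0404 ± 0.0798 in MDA-LM2 against 0.515 ± 0.585 in MDA-MB-231. ATP5ME, subunit e, had 0.120 ± 0.0348 in MDA-LM2 against -0.456 ± 1.13 in MDA-MB-231.

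**Figure D5:**
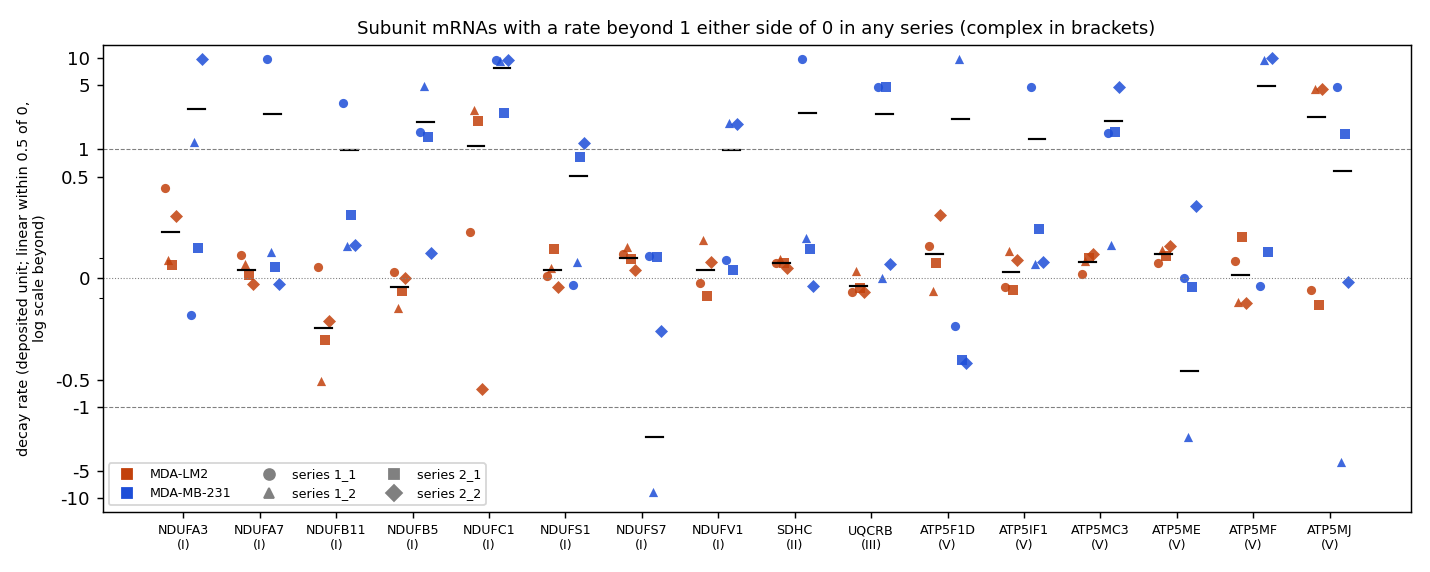
Decay rate (vertical axis, deposited unit, linear within 0.5 of 0 and logarithmic beyond) in each series of MDA-LM2 (orange, left) and MDA-MB-231 (blue, right) for the 16 subunit genes with a rate beyond 1 either side of 0 (dashed lines), with black lines for means. Rates beyond the dashed lines occur in MDA-MB-231 for every gene and in MDA-LM2 for NDUFC1 and ATP5MJ only.

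The subunits share short coding sequences, which the choice of members did not use. Their median coding length was 414 bases, against 1383 bases for other genes (77 of 79 members and 97.6% of the other genes with an mRNA had a length in GENCODE 29). Coding lengths under 600 bases were found for 56 members (72.7%) and 13% of other genes. Members under 600 bases had a median rate of 0.0186 in MDA-LM2 against 0.0995 in MDA-MB-231, and a median difference of -0.0913. Other genes under 600 bases had 0.109 in MDA-LM2 against 0.206 in MDA-MB-231, and a median difference of -0.0904. Short genes outside the respiratory chain thus had faster decay than short subunits in both lines, with nearly the same median difference. For the 21 members of 600 bases or more the median difference was -0.0899, against -0.0453 for other genes of that length. The part of length in the differences was not tested.

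Genes that build or supply the respiratory chain were examined as lists beside the subunits. Of 47 assembly factors 44 were measured, and their median was 0.133 ± 0.0177 in MDA-LM2 against 0.185 ± 0.0334 in MDA-MB-231, both above the subunits of the same line. The median of their gene differences was -0.122, and 33 of the 44 had the lower mean in MDA-LM2 (75%, against 66.8% of all genes). Among the carrier genes below, 9 of 11 had the lower mean there, with a median difference of -0.0988. Median differences of both lists were as far below 0 as that of the subunits or farther. In range they were -0.0566 for the assembly factors and -0.0632 for the carrier genes, and differences between the lists were not tested. Of the assembly factors 1 was called in each direction. The slower call makes 2.27% of the list, against 6.67% of all genes, of which 2.01% were faster. Only LYRM7, which handles the Rieske protein of complex III, was slower in MDA-LM2 (0.118 ± 0.0437 in MDA-LM2 against 0.266 ± 0.0552 in MDA-MB-231, limma adjusted p = 0.0473), and only COA7, a complex IV factor, was faster (0.399 ± 0.0845 in MDA-LM2 against 0.181 ± 0.0635 in MDA-MB-231, adjusted p = 0.0478). With correlated series neither passed (adjusted p = 0.212 for LYRM7 and 0.128 for COA7). The largest differences of the list were those of NDUFAF8 (8.81, adjusted p = 0.110) and COA3 (-4.996, adjusted p = 0.272).

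Of 14 genes of mobile carriers and ubiquinone synthesis 11 were measured and 1 was slower (9.09%, against 6.67% of all genes). It was CYCS, cytochrome c, the carrier between complexes III and IV, with rates of 0.00232, 0.0499, 0.0107 and 0.0436 in the MDA-LM2 series, against 0.130, 0.131, 0.127 and 0.114 in the MDA-MB-231 series. The lines did not overlap (difference -0.0988, SE 0.0157, limma adjusted p = 0.0108, 0.0369 with correlated series). COQ3 and COQ7, of ubiquinone synthesis, had the largest differences of the list, at -2.52 (adjusted p = 0.465) and -0.528 (adjusted p = 0.543).

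Of 18 regulators of these genes and of mitochondrial DNA 15 were measured, and 1 passed in each direction. The slower call makes 6.67% of the list, the same share as over all genes, of which 2.01% were faster. PPARGC1A, a coactivator of mitochondrial biogenesis, was faster in MDA-LM2, with 0.482, 0.324, 0.446 and 0.566 in the MDA-LM2 series, against 0.0853, 0.0464, 0.116 and 0.280 in the MDA-MB-231 series (difference 0.322, SE 0.0687, limma adjusted p = 0.0336, 0.216 with correlated series). ESRRA, a nuclear receptor that acts with that coactivator, was slower in MDA-LM2, with 0.203, 0.0775, 0.118 and 0.201 in the MDA-LM2 series, against 9.52, 9.54, 9.49 and 9.45 in the MDA-MB-231 series (adjusted p = 6.11e-05). All 4 MDA-MB-231 rates of ESRRA lay in the range near 9.5, far from the bulk. GABPB1, a subunit of the factor NRF2, had 0.216 ± 0.0732 in MDA-LM2 against 2.91 ± 2.58 in MDA-MB-231 (adjusted p = 0.214).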

How the data were processed

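Decay rates of MDA-LM2 and MDA-MB-231 cells were analysed as deposited. The authors deposited, per the file headers, 1 decay rate per RefSeq transcript and replicate series. For each transcript they also deposited a score of the difference between the lines that the header calls a t-score. Libraries were prepared with ScriptSeq V2, per the labels' protocols. The submitters' processing notes name TopHat, Cufflinks and hg18 but give no versions or roles. The tables hold no coordinates.

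Recomputed for the 12966 transcripts with rates in both lines, that score was, within 0.001, 1 minus the two-sided p of an unequal-variance test, with a positive sign where MDA-LM2 had the lower mean.

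Accessions were given current symbols from a RefSeq gene table (12644) or GENCODE 29 (117), and 205 kept their own ID. A gene's rate was the median over its mRNA rows. NDUFA4 was counted in complex IV, and readthrough genes were left out. The 4 series of each line were compared with limma 3.58.1 under R 4.3.3, two-sided, without a block and with a trend in the variance, adjusting by Benjamini-Hochberg over 10827 genes. The fit was also run on simulated data with independent series and only genes in range. Since the real series were correlated, that run cannot show the error rate of the calls. The alternatives were a replicate block, centring, correlated series, no trend, genes in range, single transcripts, the deposited score, removal of zeros, fewer members and leaving out each series. Python 3.11.15 with pandas 2.3.3 and numpy 2.4.6 computed the rest, and matplotlib 3.10.9 drew the figures.

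Named were members past adjusted p 0.05. Also named were the 2 fastest, 2 slowest and 2 most different of each complex, members with rates beyond 1, and forms encoded by several genes. From each list of other genes, those called and the 2 most different were named. Members and lists were chosen with earlier results of these data known. The values of 1 member were left out of the text and figures, and members outside these rules are given by range and count. No column was left unmapped.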

Additional observations from a re-analysis of the deposited data

Results flagged for a closer look

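Of 112 groups of 4 series examined, 13 held a series far from the other 3, against 5.6 expected by chance at 1 in 20, and many of these genes were named for their extreme rates. All the single genes were far off in MDA-MB-231.

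Series 1_1 stood far above the other 3 for NDUFA7 (9.65), SDHC (9.74), ATP5IF1 (4.77) and NDUFB11 (3.25). Series 1_2 stood apart upward for ATP5F1D (9.69) and downward for NDUFS7 (-8.45), ATP5ME (-2.14) and ATP5MC2 (-0.125). Series 2_2 was far above the others for NDUFA3 (9.78). Series 2_1 was far below the others for NDUFC1 (2.49) and above them for NDUFS6 (0.0715). The remaining cases were medians of complexes: the complex II median of MDA-LM2 was lowest in series 2_2 (0.0512), and the complex IV median of MDA-MB-231 was highest in series 2_2 (0.0962).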

How the results depend on the processing

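The count of subunit mRNAs slower in MDA-LM2 (12) was 3 with correlated series, 3 for single transcripts with correlated series, 5 by the authors' deposited score, 0 for genes in range with correlated series, and 8 without the trend in the variance. The correlated fits of single transcripts and of genes in range were chosen after seeing the data. Leaving out 1 series gave 3 to 13 slower. ATP5F1A, ATP5PB and NDUFS3 were called in each of the 8 fits that left out a series. Over all 10827 genes, those fits called 402 to 993 slower in MDA-LM2. The count of faster subunits (0) was 1 with centring, 1 for single transcripts, 1 by the score, and 0 to 1 on leaving out a series. Paired by number, the replicate block gave 1 slower (NDUFS3), against 2.28% of all genes. Same-numbered series of the lines did not deviate together (correlations -0.0143, 0.00645, -0.00947 and -0.0220), so the numbers were not taken to pair the lines. Within a line, series whose labels end in the same number correlated at 0.338 and 0.162 (MDA-LM2) and at 0.375 and 0.154 (MDA-MB-231).

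Centring moved the median subunit rate to -0.141 (MDA-LM2) and -0.0961 (MDA-MB-231), and the complex IV difference to -0.0251. On leaving out a series, the difference was -0.126 to -0.101 for complex I, -0.100 to -0.0586 for complex II, -0.0752 to -0.0478 for complex III, -0.0659 to -0.0277 for complex IV and -0.0917 to -0.0773 for complex V. Some named genes changed sign. With centring the differences were 0.0203 for NDUFA4, 0.00212 for UQCRFS1 and 0.00875 for UQCRHL. By single transcripts and the score they were 0.0866 for ATP5MC3 and -0.152 for ATP5MJ. On leaving out a series they ranged from -2.90 to 0.474 for ATP5F1D, -0.0147 to 0.0751 for ATP5MC1, -0.0961 to 0.0249 for COX6B2, -0.0795 to 0.000796 for COX8A, -0.0262 to 0.0244 for NDUFA4 and -0.0434 to 0.0239 for UQCRHL. Of the values of named genes under alternatives, 740 kept direction and side of the threshold, 103 no longer passed it, 5 passed it and 20 changed sign. Only called genes can stop passing, so the 103 came from them alone, while the 740 include uncalled genes that stayed uncalled. Of 15 alternative fits of gene rates, ATP5F1C and NDUFB1 passed in 3 and NDUFS3 in 14, with the other called genes between. The causes were not tested. Read depth is unknown, and 4 series per line limit the precision.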

Other observations

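Some subunit transcripts had rates in 1 line only and entered no comparison. NM_001864 of COX7A1, known as the heart and muscle form of that complex IV subunit, had 9.20, 9.50, 9.40 and 9.37 in the MDA-MB-231 series. NM_020142 of NDUFA4L2, a relative of NDUFA4, had 9.25, 0.133, 9.35 and 9.33 there, and NM_001204054 of NDUFC2 had 2.66, 0.104, 3.15 and 2.54. NM_001003684 of UQCR10 (9.66, 9.35, 9.56 and 9.53) and NM_032747 of ATP5MK (9.47, 9.74, 9.55 and 9.55) were also in the range near 9.5 in all 4 MDA-MB-231 series, unlike the other transcripts of their genes. In 2 genes called slower from another transcript, NM_005174 of ATP5F1C had -0.102, -0.240, -0.0614 and 0.0458 in MDA-MB-231. NM_001003785 of ATP5PD had 0.0320, 1.18, -0.0677 and 9.62 there. NM_005006 of NDUFS1 had 2.12, 0.0265, 0.220 and 0.117 in MDA-MB-231, and NM_001035511 of SDHC had 7.88, -8.46, 1.16 and -8.42. In MDA-LM2 only, NM_001165877 of ATP5MGL had 0.0498, 0.151, 0.126 and 0.359, and NM_019056 of NDUFB11 had -0.361, -1.56, 0.0497 and -1.66.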
